A study of Arabidopsis thaliana with 12 samples.

Results

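Expansin, xyloglucan endotransglucosylase/hydrolase (XTH) and cellulose synthase-like (CSL) genes were followed in Arabidopsis seedlings during 24 h of cold, in wild type and in the rcf1-1 mutant. Members were the probe sets of the Affymetrix ATH1 array that its annotation gives to exactly 1 gene with a symbol of the type EXPA, EXPB, EXLA, EXLB, XTH, CESA, CSLA, CSLB, CSLC, CSLD, CSLE or CSLG followed by a number. This gave 35 genes, each with 1 probe set, among 22746 probe sets that are not array controls. They were 10 alpha-expansins (EXPA), 4 beta-expansins (EXPB), 3 expansin-like A genes (EXLA), 1 expansin-like B gene (EXLB), 9 XTH genes, 5 CSLC genes, 2 CSLA genes and 1 CSLD gene. No CESA, CSLB, CSLE or CSLG gene met the rule, so the cellulose synthase subunits themselves are not analysed here. The seedlings were 14 days old and had grown on agar with sucrose at 21 °C, with 16 h of light and 8 h of dark a day. Wild type was Columbia with the gl1 mutation and a CBF2::LUC transgene, a luciferase reporter on the promoter of a cold-response regulator gene, so the controls are not plain Columbia. The mutant group carries rcf1-1, a lesion in the gene of a DEAD-box RNA helicase, and the labels state no background for it. Both genotypes were sampled unchilled (0 h) and after 12 h and 24 h at 4 °C, with 2 biological replicate arrays in each of the 6 groups.

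Plant cells grow when the wall around them yields to turgor. Expansins loosen the contacts between wall polymers without cutting them, while XTH enzymes cut xyloglucan, a major hemicellulose of the primary wall, and join the cut end to another chain or to water. CSLC proteins make the glucan backbone of xyloglucan, CSLA proteins make mannans, and CSLD proteins act in tip-growing cells such as root hairs. Cold is known to slow the growth of seedlings.

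Values are log2 signals after RMA, the normalization named in the submitters' processing notes. Array medians lay between 4.03 and 4.22, and group means under 4.03 are called close to the lowest signals, where measured differences may understate the change. By this convention 12 members were low in all 6 groups, 15 were above the line in all 6, and 8 crossed it. The 8 were CSLA03, EXLA2, EXPA8, EXPA20, EXPB1, XTH16, XTH20 and XTH33. EXPA20 was above the line only in rcf1-1 at 24 h, where replicate 1 read 3.61 and replicate 2 read 4.92. Both replicate 2 arrays at 24 h stood apart from the rest. Their GAPDH control had a 5' minus 3' log2 difference of -5.13 in wild type and -4.45 in rcf1-1, against -1.06 to -0.29 on the other 10 arrays. The differences at 24 h are therefore given with these 2 arrays and, as "replicate 1 alone", without them. In that second fit each 24 h group is 1 array, assumed to vary like the other groups. Of the 10 leaf mesophyll markers RCA, the Rubisco activase gene, was the 1 paired with a probe set, and it read 11.73 to 12.87 over the 12 arrays. None of the 12 root, 6 root hair or 7 xylem markers was paired, so their tissues were not checked. TRY, the 1 trichome marker paired of 4, was called lower at 12 h in wild type (-1.3 ± 0.31) and rcf1-1 (-1.21 ± 0.31) and at 24 h in rcf1-1 (-0.96 ± 0.31; -1.34 with replicate 1 alone). In wild type at 24 h TRY had -0.87 ± 0.31, not called, and -1.35 with replicate 1 alone, called. RCA was called lower in rcf1-1 at 24 h (-0.8 ± 0.2; -0.68 with replicate 1 alone), and in wild type it had -0.67 ± 0.2 (adjusted p = 0.0511; -0.38 with replicate 1 alone, called). The part of these markers in the results was not tested. The trichome list also holds GL1, which wild type carries in mutant form, and the background of rcf1-1 is not stated. TRY was therefore not read as a measure of trichome cells. In whole seedlings fewer cells of a type and less RNA per cell cannot be told apart. The labels list no unchilled seedlings at 12 h or 24 h, so cold and elapsed time, and at 12 h also the time of day, cannot be told apart.

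The response to cold was measured in each genotype against its own 0 h group. In wild type at 12 h, 11 of 35 members passed the test, 4 higher and 7 lower (limma, Benjamini-Hochberg adjusted p under 0.05 over all probe sets). The background in that comparison was 12% of all probe sets called, 6.05% higher and 5.92% lower. In wild type at 24 h, 10 members passed, 5 higher and 5 lower, against a background of 13.2%, with 5.83% higher and 7.33% lower. In rcf1-1 at 12 h, 7 members passed, 4 higher and 3 lower, against 12.2%, with 5.46% higher and 6.78% lower. In rcf1-1 at 24 h, 11 passed, 5 higher and 6 lower, against 20.8%, with 8.38% higher and 12.4% lower. The members' shares called were thus 31.4%, 28.6%, 20% and 31.4%, each above its background. The list was chosen with earlier results of these data known, so these shares do not test the family. Without both 24 h replicate 2 arrays, 16, 12, 14 and 18 members passed in the same order, while the background rose to 28.6%, 24.7%, 29.5% and 34%. The median log2 difference over the 35 members was -0.13, -0.14, 0.08 and -0.15 in these 4 comparisons, against -0.01, 0.02, 0.00053 and 0.03 over all probe sets. The members called lay on both sides while the middle of the list stayed close to 0. In all, 16 of the 35 members passed in at least 1 of these comparisons, against 29.8% of all probe sets. The comparisons at 12 h and 24 h within a genotype share their 0 h arrays.

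**Figure D1:**
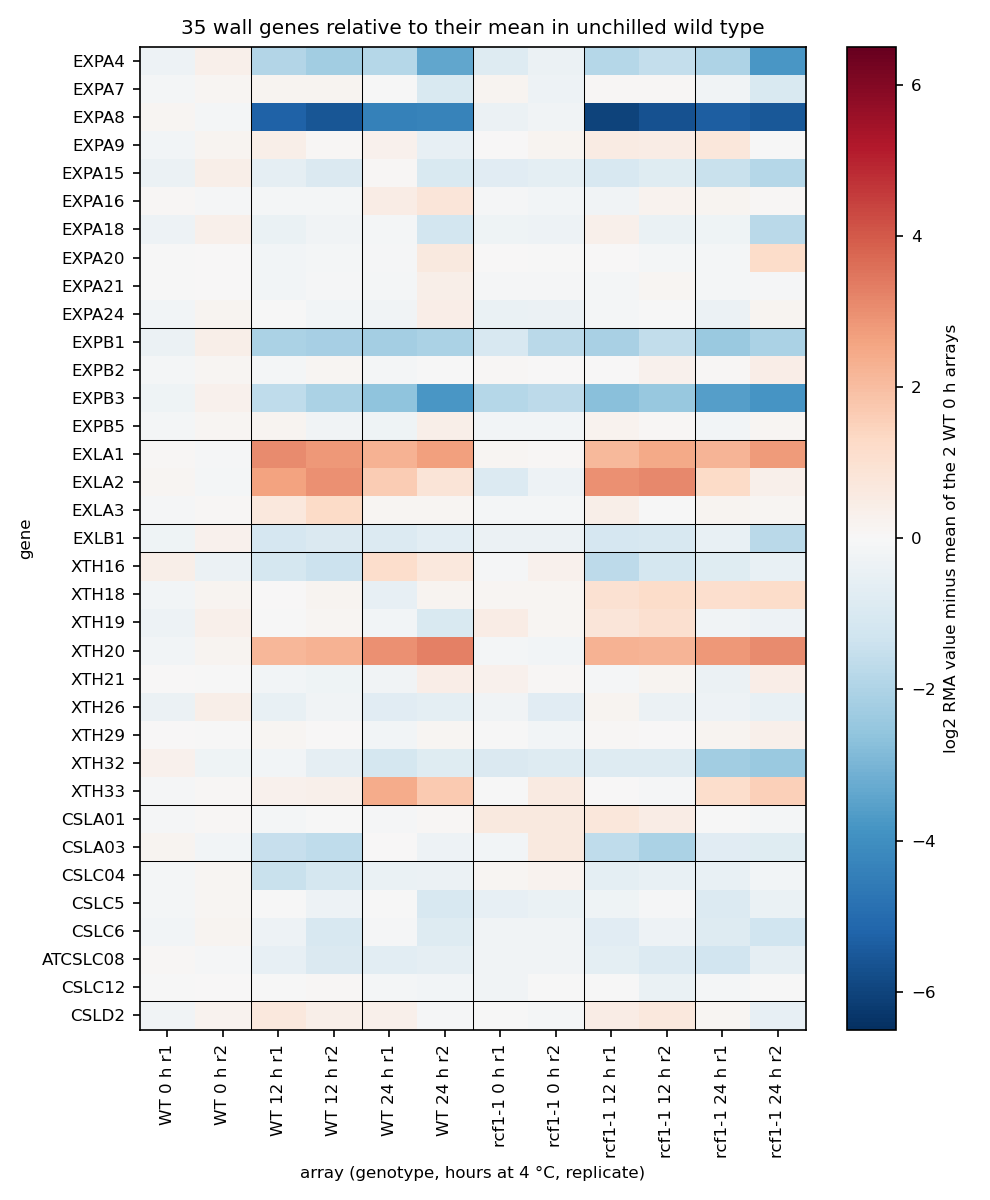
Log2 RMA value of each of the 35 genes (rows, by family) on each of the 12 arrays (columns), minus the gene's mean on the 2 unchilled wild-type arrays. EXPA8 has the largest negative values, on the chilled arrays of both genotypes, and EXLA1, EXLA2 and XTH20 turn positive in the cold.

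**Figure D2:**
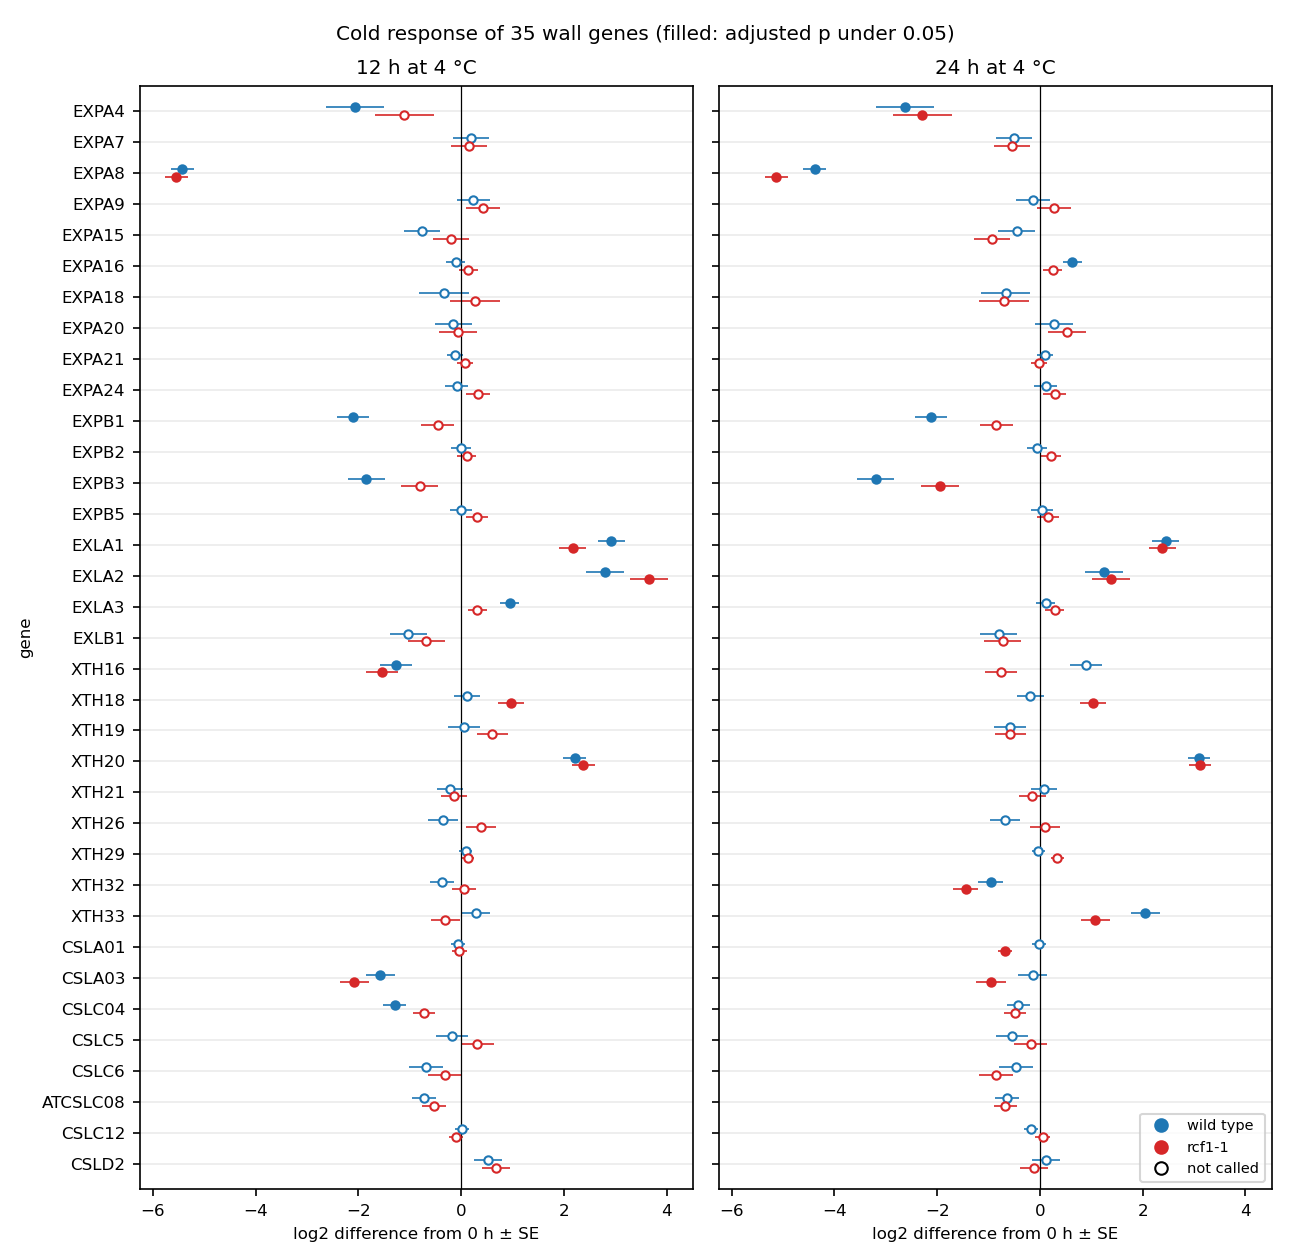
Log2 difference from 0 h with its standard error for the 35 genes at 12 h (left) and 24 h (right), in wild type and rcf1-1, from all 12 arrays. Filled points passed the test, and EXPA8 lies below -4 in all 4 comparisons.

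Among the alpha-expansins, EXPA8 (AT2G40610) fell in the cold in both genotypes. Its values in wild type were 9.11 and 8.85 unchilled, 3.71 and 3.4 at 12 h and 4.56 and 4.63 at 24 h. In rcf1-1 they were 8.6 and 8.75 unchilled, 2.95 and 3.32 at 12 h and 3.61 and 3.48 at 24 h. No chilled array read above 4.63, and no unchilled array read below 8.6. The wild-type difference was -5.42 ± 0.22 at 12 h (SE, n = 2 arrays per group; limma adjusted p = 1.98e-07), and -4.38 ± 0.22 at 24 h (adjusted p = 2.3e-06). In rcf1-1 it was -5.54 ± 0.22 at 12 h (adjusted p = 1.86e-07) and -5.13 ± 0.22 at 24 h (adjusted p = 3.54e-07). With replicate 1 alone the 24 h differences were -4.41 in wild type and -5.06 in rcf1-1. EXPA8 at 24 h was lower in rcf1-1 than in wild type, with a difference of -1.05 ± 0.22 (adjusted p = 0.0175). Replicate 1 alone gave -0.95 (adjusted p = 0.0168). The group means of 3.56 and 3.13 at 12 h and 3.54 in rcf1-1 at 24 h are close to the lowest signals, so these differences may understate the change.

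EXPA4 (AT2G39700) was the other alpha-expansin that fell. In wild type it read 7.05 and 7.67 unchilled, 5.47 and 5.12 at 12 h and 5.49 and 3.98 at 24 h. The rcf1-1 arrays read 6.53 and 6.97 unchilled, 5.48 and 5.81 at 12 h and 5.34 and 3.58 at 24 h. The chilled and unchilled arrays did not overlap in either genotype, and the 2 lowest values are those of the 24 h replicate 2 arrays. In wild type the difference was -2.06 ± 0.57 at 12 h (adjusted p = 0.0383) and -2.62 ± 0.57 at 24 h (adjusted p = 0.0114), and in rcf1-1 at 24 h -2.29 ± 0.57 (adjusted p = 0.0162). With replicate 1 alone the 24 h differences were -1.87 (adjusted p = 0.000157) and -1.41 (adjusted p = 0.00108). The rcf1-1 difference at 12 h, -1.1 ± 0.57, did not pass with all arrays (adjusted p = 0.286) and passed without both 24 h replicate 2 arrays (adjusted p = 0.00175). The 3 calls of EXPA4 did not hold in all fits with 1 array fewer. The wild-type call at 12 h, which passed without both 24 h replicate 2 arrays (adjusted p = 6.32e-06), was lost without 0 h replicate 1 (-2.38, adjusted p = 0.0954), 0 h replicate 2 (-1.75, adjusted p = 0.25), 12 h replicate 1 (-2.24, adjusted p = 0.133) or 12 h replicate 2 (-1.89, adjusted p = 0.226). The wild-type call at 24 h was lost without 0 h replicate 2 (-2.31, adjusted p = 0.109) or 24 h replicate 2 (-1.87, adjusted p = 0.0666). The rcf1-1 call at 24 h was lost without 0 h replicate 1 (-2.51, adjusted p = 0.063), 0 h replicate 2 (-2.07, adjusted p = 0.115) or 24 h replicate 2 (-1.41, adjusted p = 0.0905).

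Of the other 8 alpha-expansins, EXPA16 was the 1 that passed in any comparison with all arrays. It was called in wild type at 24 h, at 0.63 ± 0.18 (adjusted p = 0.0456), from 3.1 and 2.94 unchilled to 3.5 and 3.81. Both group means were close to the lowest signals, and the difference was 0.48 with replicate 1 alone (adjusted p = 0.0858). The call was also lost without 0 h replicate 1 (0.71, adjusted p = 0.11), 0 h replicate 2 (0.55, adjusted p = 0.245) or 24 h replicate 2 (0.48, adjusted p = 0.2). EXPA15 was called in no comparison with all arrays. Its wild-type values were 6.13 and 6.86 unchilled, 5.91 and 5.55 at 12 h and 6.56 and 5.52 at 24 h, and in rcf1-1 they were 5.73 and 5.84, 5.47 and 5.71 and 5.06 and 4.66. All mutant arrays lay below the 2 unchilled wild-type arrays, and the genotypes did not overlap at 24 h. EXPA15 in rcf1-1 minus wild type at 24 h was -1.18 ± 0.36 (limma adjusted p = 0.0743) and -1.51 with replicate 1 alone. Without wild-type 24 h replicate 2 it was -1.71, where the mutant mean still holds its replicate 2 array. Replicate 2 was the lower 24 h array in both genotypes, so -1.71 mixes this shift with the genotype difference. EXPA7 and EXPA18, which are known from root hair formation, were called in none of the 9 comparisons. EXPA7 ranged over 3.76 to 4.95 and EXPA18 over 3.55 to 5.64 on the 12 arrays, and the lowest values of each were those of the 24 h replicate 2 arrays. EXPA9 ranged over 3.88 to 5.17 and EXPA20 over 3.58 to 4.92, without a call in the fit of all arrays. The highest values of EXPA20, 4.36 in wild type and 4.92 in rcf1-1, were those of the 24 h replicate 2 arrays. EXPA21 and EXPA24 read 2.36 to 3.23 on all arrays.

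The beta-expansins EXPB1 (AT2G20750) and EXPB3 (AT4G28250) fell in chilled wild type, and EXPB3 was also called lower in rcf1-1 at 24 h. EXPB3 read 8.01 and 8.58 unchilled, 6.67 and 6.23 at 12 h and 5.7 and 4.51 at 24 h in wild type. Its rcf1-1 values were 6.45 and 6.58 unchilled, 5.58 and 5.84 at 12 h and 4.7 and 4.45 at 24 h. The unchilled mutant arrays overlapped wild type at 12 h, and they lay below both unchilled wild-type arrays. The wild-type difference was -1.84 ± 0.36 at 12 h (adjusted p = 0.00674) and -3.19 ± 0.36 at 24 h (adjusted p = 0.000276). In rcf1-1 it was -0.8 ± 0.36 at 12 h (limma adjusted p = 0.209) and -1.94 ± 0.36 at 24 h (adjusted p = 0.00354). The rcf1-1 difference at 12 h did not pass with all arrays and passed without both 24 h replicate 2 arrays. Replicate 1 alone gave -2.6 in wild type and -1.82 in rcf1-1 at 24 h, both called. The wild-type call of EXPB3 at 12 h was lost without 0 h replicate 2 (-1.55, adjusted p = 0.0808) or 12 h replicate 2 (-1.63, adjusted p = 0.0821).

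EXPB1 read 5.09 and 5.88 in unchilled wild type, 3.44 and 3.33 at 12 h and 3.3 and 3.43 at 24 h. In rcf1-1 it read 4.43 and 3.75 unchilled, 3.37 and 3.89 at 12 h and 3.05 and 3.44 at 24 h. The unchilled wild-type arrays and the first unchilled mutant array were the 3 that stood above 4. The wild-type difference was -2.1 ± 0.32 at 12 h (adjusted p = 0.00131) and -2.12 ± 0.32 at 24 h (adjusted p = 0.00134; -2.19 with replicate 1 alone). In rcf1-1 the differences of -0.46 ± 0.32 at 12 h and -0.85 ± 0.32 at 24 h did not pass (adjusted p = 0.462 and 0.0842). With replicate 1 alone EXPB1 passed in rcf1-1 at 24 h, at -1.04 (adjusted p = 0.0259). All 4 chilled groups of EXPB1 have means close to the lowest signals. EXPB2 and EXPB5 read 2.63 to 3.72 over all arrays and were not called.

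Unchilled rcf1-1 minus wild type was -1.78 ± 0.36 for EXPB3 (95% interval -2.58 to -0.98) and -1.39 ± 0.32 for EXPB1 (-2.09 to -0.69). Neither beta-expansin passed over all probe sets (adjusted p = 0.163 and 0.232). Both were called without the 24 h replicate 2 arrays, which enter the shared error estimate (adjusted p = 0.000366 and 0.00993), a fit in which 5.35% of all probe sets were called. EXPB3 differed by -0.74 ± 0.36 at 12 h and -0.53 ± 0.36 at 24 h, neither called with all arrays, and both passed in the second fit (-0.74 and -1).

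EXLA1 and EXLA2, expansin-like A genes, rose in the cold in both genotypes, and EXLA3 passed in wild type at 12 h alone. EXLA1 (AT3G45970) read 4.13 and 3.95 in unchilled wild type, 7.09 and 6.84 at 12 h and 6.27 and 6.7 at 24 h. The rcf1-1 arrays read 4.16 and 4.13 unchilled, 6.14 and 6.5 at 12 h and 6.23 and 6.82 at 24 h. All chilled arrays lay above all unchilled ones. EXLA1 rose in wild type by 2.93 ± 0.26 at 12 h, a 7.61-fold increase (adjusted p = 3.76e-05), and by 2.45 ± 0.26 at 24 h (adjusted p = 0.000193; 2.24 with replicate 1 alone). In rcf1-1 it rose by 2.17 ± 0.26 at 12 h and 2.38 ± 0.26 at 24 h (adjusted p = 0.00029 and 0.000136; 2.09 at 24 h with replicate 1 alone).

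EXLA2 (AT4G38400) was highest at 12 h. It read 3.99 and 3.71 in unchilled wild type, 6.49 and 6.81 at 12 h and 5.53 and 4.68 at 24 h. Its rcf1-1 values were 2.95 and 3.54 unchilled, 6.83 and 6.99 at 12 h and 5.08 and 4.17 at 24 h. The 24 h arrays lay between the unchilled and the 12 h arrays in both genotypes, with the lower value on replicate 2. EXLA2 rose at 12 h by 2.8 ± 0.37 in wild type (adjusted p = 0.000516) and 3.66 ± 0.37 in rcf1-1 (adjusted p = 8.09e-05). At 24 h the rises were 1.25 ± 0.37 (adjusted p = 0.0465) and 1.38 ± 0.37 (adjusted p = 0.0218), with 1.68 and 1.84 in replicate 1 alone. The 24 h calls of EXLA2 did not hold in all fits with 1 array fewer. The wild-type call was lost without 0 h replicate 1 (1.4, adjusted p = 0.12), 0 h replicate 2 (1.11, adjusted p = 0.244) or 24 h replicate 1 (0.83, adjusted p = 0.144). The rcf1-1 call was lost without 0 h replicate 1 (1.09, adjusted p = 0.181) or 24 h replicate 1 (0.92, adjusted p = 0.0868).

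EXLA3 (AT3G45960) lies next to EXLA1 in assembly TAIR10.1. It read 2.49 and 2.64 unchilled, 3.23 and 3.79 at 12 h and 2.67 and 2.69 at 24 h in wild type, and 2.41 and 2.46, 2.95 and 2.55 and 2.74 and 2.71 in rcf1-1. The wild-type arrays at 12 h were the highest, and all 6 group means are close to the lowest signals. The rise of 0.94 ± 0.19 in wild type at 12 h was called (adjusted p = 0.00701). EXLA3 did not pass in rcf1-1 at 12 h (0.31 ± 0.19), or at 24 h in wild type (0.12 ± 0.19; 0.11 with replicate 1 alone) or rcf1-1 (0.29 ± 0.19; 0.3). The wild-type call at 12 h was lost without 0 h replicate 1 (0.87, adjusted p = 0.069) or 12 h replicate 2 (0.67, adjusted p = 0.0671). EXLB1, the expansin-like B gene, ranged over 4.84 to 6.87 and was not called with all arrays. Its wild-type differences were -1.02 ± 0.36 at 12 h and -0.8 ± 0.36 at 24 h (-0.9 with replicate 1 alone). In rcf1-1 EXLB1 read 6.17 and 6.2 unchilled, 5.48 and 5.53 at 12 h and 6.08 and 4.84 at 24 h. The rcf1-1 difference at 12 h was -0.67, and the 12 h differences of both genotypes passed without both 24 h replicate 2 arrays.

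**Figure D3:**
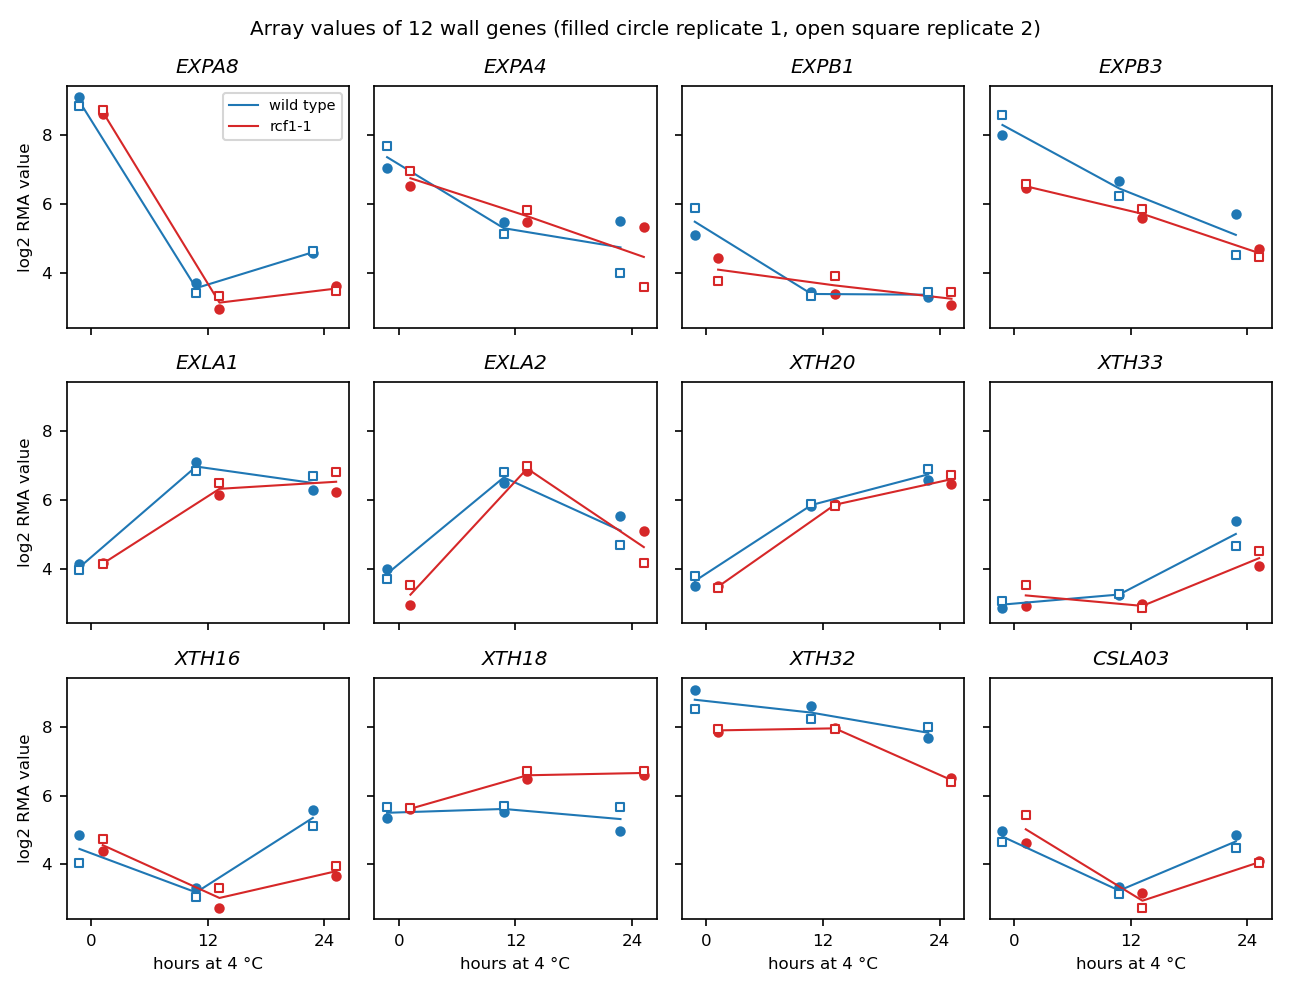
Log2 RMA values of 12 genes against hours at 4 °C, by genotype and replicate, with lines through the group means. EXPA4 shows the gap of the 24 h replicate 2 arrays, XTH18 separates the genotypes in the cold, and XTH16 separates them at 24 h.

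Among the XTH genes, XTH20 (AT5G48070), known from roots and from the healing of cut stems, rose at both times. It read 3.48 and 3.8 in unchilled wild type, 5.82 and 5.88 at 12 h and 6.58 and 6.89 at 24 h. In rcf1-1 it read 3.51 and 3.44 unchilled, 5.89 and 5.82 at 12 h and 6.46 and 6.73 at 24 h. The arrays of the genotypes overlapped at all 3 times. The rise was 2.21 ± 0.22 at 12 h (adjusted p = 7.65e-05) and 3.1 ± 0.22 at 24 h (adjusted p = 1.63e-05) in wild type. In rcf1-1 it was 2.38 ± 0.22 (adjusted p = 4.7e-05) and 3.12 ± 0.22 (adjusted p = 6.3e-06). Replicate 1 alone gave 2.95 in wild type and 2.99 in rcf1-1 at 24 h. The difference between the 24 h responses of the genotypes was 0.02, with a 95% interval of -0.66 to 0.71, and 0.04 with replicate 1 alone.

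XTH33 (AT1G10550) rose at 24 h. It read 2.86 and 3.05 in unchilled wild type, 3.23 and 3.27 at 12 h and 5.37 and 4.64 at 24 h. The rcf1-1 arrays read 2.92 and 3.52 unchilled, 2.96 and 2.87 at 12 h and 4.08 and 4.52 at 24 h. The 24 h arrays lay above all others. The rise was 2.05 ± 0.28 in wild type (adjusted p = 0.000756; 2.42 with replicate 1 alone) and 1.08 ± 0.28 in rcf1-1 (adjusted p = 0.0194; 0.86 with replicate 1 alone, adjusted p = 0.00879). XTH33 lost its rcf1-1 call without 0 h replicate 1 (0.78, adjusted p = 0.188) or 24 h replicate 2 (0.86, adjusted p = 0.0898). Rcf1-1 minus wild type at 24 h was -0.7 ± 0.28 (adjusted p = 0.175). It was -1.29 with replicate 1 alone. Without wild-type 24 h replicate 2 it was -1.07, where the mutant mean still holds its replicate 2 array.

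XTH16 (AT3G23730) was low at 12 h in both genotypes and high at 24 h in wild type. It read 4.85 and 4.05 in unchilled wild type, 3.32 and 3.05 at 12 h and 5.59 and 5.12 at 24 h. Its rcf1-1 values were 4.39 and 4.73 unchilled, 2.74 and 3.31 at 12 h and 3.66 and 3.95 at 24 h. At 24 h the wild-type arrays lay above both unchilled wild-type arrays, and the mutant arrays lay below both unchilled mutant arrays. The difference at 12 h was -1.26 ± 0.32 in wild type (adjusted p = 0.0244) and -1.53 ± 0.32 in rcf1-1 (adjusted p = 0.00829). At 24 h it was 0.9 ± 0.32 in wild type and -0.76 ± 0.32 in rcf1-1, neither called with all arrays (adjusted p = 0.0899 and 0.116) and both called with replicate 1 alone, at 1.14 and -0.9. The 12 h calls of XTH16 did not hold in all fits with 1 array fewer. The wild-type call was lost without 0 h replicate 1 (-0.86, adjusted p = 0.207), 12 h replicate 1 (-1.4, adjusted p = 0.0871) or 12 h replicate 2 (-1.13, adjusted p = 0.184). The rcf1-1 call was lost without 0 h replicate 2 (-1.37, adjusted p = 0.0896) or 12 h replicate 1 (-1.25, adjusted p = 0.107). Rcf1-1 minus wild type at 24 h was -1.55 ± 0.32 (adjusted p = 0.014), and -1.93 with replicate 1 alone. The XTH16 means of both genotypes at 12 h (3.19 and 3.02) and of rcf1-1 at 24 h (3.8) are close to the lowest signals. At 0 h and 12 h rcf1-1 minus wild type was 0.11 ± 0.32 and -0.16 ± 0.32, with 95% intervals of -0.59 to 0.81 and -0.86 to 0.54.

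XTH18 (AT4G30280) and XTH19 (AT4G30290) lie next to each other in the genome and are both known from roots. XTH18 read 5.34 and 5.66 unchilled, 5.53 and 5.7 at 12 h and 4.97 and 5.66 at 24 h in wild type. In rcf1-1 it read 5.61 and 5.63 unchilled, 6.48 and 6.7 at 12 h and 6.61 and 6.7 at 24 h. The unchilled genotypes overlapped, and every chilled mutant array lay above every wild-type array. XTH18 was higher in rcf1-1 at 24 h by 1.34 ± 0.25, a 2.53-fold difference (adjusted p = 0.0103; 1.64 with replicate 1 alone, adjusted p = 0.000249). At 12 h the difference was 0.98 ± 0.25 and did not pass (adjusted p = 0.104; 0.00167 without both 24 h replicate 2 arrays). Against its own 0 h, XTH18 rose in rcf1-1 by 0.97 ± 0.25 at 12 h (adjusted p = 0.0297) and 1.04 ± 0.25 at 24 h (adjusted p = 0.0151; 0.99 with replicate 1 alone). In wild type its differences were 0.11 ± 0.25 at 12 h and -0.18 ± 0.25 at 24 h (-0.52 with replicate 1 alone), neither called. The 12 h call of XTH18 in rcf1-1 was lost without 0 h replicate 1 (0.96, adjusted p = 0.168), 0 h replicate 2 (0.98, adjusted p = 0.159), 12 h replicate 1 (1.08, adjusted p = 0.107) or 12 h replicate 2 (0.86, adjusted p = 0.208). The 24 h call was lost without 0 h replicate 1 (1.03, adjusted p = 0.098) or 0 h replicate 2 (1.05, adjusted p = 0.0913).

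XTH19 was called in no comparison with all arrays. It read 6.07 and 6.73 unchilled, 6.4 and 6.52 at 12 h and 6.24 and 5.41 at 24 h in wild type, and 6.89 and 6.5, 7.19 and 7.42 and 6.19 and 6.06 in rcf1-1. The genotypes stood apart at 12 h, by 0.85 ± 0.31 (limma adjusted p = 0.281, and 0.0141 without both 24 h replicate 2 arrays), and overlapped at 0 h and 24 h. The rcf1-1 mean was 6.7 unchilled and 7.31 at 12 h, a rise that passed only without both 24 h replicate 2 arrays among these 2 fits. From 0 h to 12 h wild type had 0.06 ± 0.31. The difference between the 12 h responses of XTH19 was called in neither fit.

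XTH32 (AT2G36870), of the subgroup whose members mainly hydrolyse xyloglucan, was high in signal and lower at 24 h. It read 9.06 and 8.51 in unchilled wild type, 8.6 and 8.22 at 12 h and 7.67 and 7.98 at 24 h. The rcf1-1 arrays read 7.84 and 7.95 unchilled, 7.97 and 7.94 at 12 h and 6.51 and 6.39 at 24 h. Every mutant array lay below the wild-type arrays of the same time. From 0 h to 24 h the difference was -0.96 ± 0.24 in wild type (adjusted p = 0.022; -1.12 with replicate 1 alone) and -1.45 ± 0.24 in rcf1-1 (adjusted p = 0.00172; -1.38 with replicate 1 alone). XTH32 lost its wild-type call without 0 h replicate 1 (-0.68, adjusted p = 0.17) or 24 h replicate 1 (-0.8, adjusted p = 0.0521). Rcf1-1 minus wild type at 24 h was -1.38 ± 0.24 (adjusted p = 0.00646; -1.16 with replicate 1 alone, adjusted p = 0.00432). It was -0.89 ± 0.24 at 0 h and -0.46 ± 0.24 at 12 h, neither called with all arrays (adjusted p = 0.338 and 0.517). The 0 h difference passed without both 24 h replicate 2 arrays (adjusted p = 0.0109). XTH21, XTH26 and XTH29 read 2.39 to 4.18 over all arrays and were not called in the fit of all arrays.

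Among the CSL genes, CSLA03 (AT1G23480), of the mannan synthase family, dipped at 12 h. It read 4.97 and 4.65 in unchilled wild type, 3.33 and 3.15 at 12 h and 4.84 and 4.49 at 24 h. Its rcf1-1 values were 4.62 and 5.42 unchilled, 3.16 and 2.73 at 12 h and 4.1 and 4.03 at 24 h. The 12 h arrays lay below all others, the wild-type 24 h arrays overlapped the unchilled ones, and the mutant 24 h arrays stayed below theirs. The difference at 12 h was -1.57 ± 0.29 in wild type (adjusted p = 0.0045) and -2.08 ± 0.29 in rcf1-1 (adjusted p = 0.000725). At 24 h it was -0.14 ± 0.29 in wild type (0.04 with replicate 1 alone), not called, and -0.96 ± 0.29 in rcf1-1 (adjusted p = 0.0385; -0.93 with replicate 1 alone, adjusted p = 0.0283). CSLA03 lost its wild-type call at 12 h without 12 h replicate 2 (-1.48, adjusted p = 0.0555). The rcf1-1 call at 24 h was lost without 0 h replicate 2 (-0.56, adjusted p = 0.303), 24 h replicate 1 (-0.99, adjusted p = 0.0564) or 24 h replicate 2 (-0.93, adjusted p = 0.0977).

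CSLC04 (AT3G28180), a gene of the xyloglucan backbone, was called lower in wild type at 12 h. It read 6 and 6.24 unchilled, 4.68 and 4.97 at 12 h and 5.67 and 5.74 at 24 h in wild type. In rcf1-1 it read 6.23 and 6.32 unchilled, 5.5 and 5.62 at 12 h and 5.63 and 5.96 at 24 h. The lowest 2 arrays were those of wild type at 12 h. In both genotypes the arrays of 12 h and 24 h lay below the unchilled ones. At 24 h neither genotype was called with all arrays. The wild-type difference was then -0.42 ± 0.22 (-0.45 with replicate 1 alone), and the rcf1-1 mean was 5.8 against 6.28 unchilled. The wild-type difference at 12 h was -1.3 ± 0.22 (adjusted p = 0.00264), while the rcf1-1 difference of -0.72 ± 0.22 did not pass (adjusted p = 0.0574; 0.00493 without both 24 h replicate 2 arrays). Rcf1-1 minus wild type at 12 h was 0.74 ± 0.22 for CSLC04 (adjusted p = 0.16; 0.0103 without those arrays).

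CSLA01 (AT4G16590) read 3.35 and 3.37 unchilled, 3.46 and 3.21 at 12 h and 2.74 and 2.63 at 24 h in rcf1-1. In wild type it read 2.68 and 2.79, 2.63 and 2.73 and 2.65 and 2.8. The 4 rcf1-1 arrays of 0 h and 12 h thus stood above the other 8, all at signals close to the lowest. From 0 h to 24 h the rcf1-1 difference was -0.68 ± 0.14 (adjusted p = 0.00596; -0.63 with replicate 1 alone). Rcf1-1 minus wild type was 0.62 ± 0.14 at 0 h (adjusted p = 0.228) and 0.65 ± 0.14 at 12 h (adjusted p = 0.0528), and both passed without the 24 h replicate 2 arrays (adjusted p = 0.0145 and 0.00474). CSLC5, CSLC6, CSLC12, ATCSLC08 and the root hair gene CSLD2 were called in no comparison with all arrays. Without both 24 h replicate 2 arrays ATCSLC08 and CSLD2 passed at 12 h in both genotypes, and CSLC6 passed in wild type. Their wild-type differences at 12 h were -0.71 ± 0.23, 0.52 ± 0.27 and -0.68 ± 0.33. At 24 h ATCSLC08 had -0.63 ± 0.23 in wild type (-0.66 with replicate 1 alone). In rcf1-1 its mean was 3.7 unchilled and 3.03 at 24 h, and all 6 group means were close to the lowest signals. CSLC5 in rcf1-1 minus wild type at 24 h was -0.12 ± 0.32 (-0.86 with replicate 1 alone). CSLD2 ranged over 5.37 to 6.57, CSLC5 over 4.97 to 6.13, CSLC6 over 4.12 to 5.61, CSLC12 over 2.4 to 2.89 and ATCSLC08 over 2.71 to 4.04 on the 12 arrays.

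The effect of the mutation was taken as rcf1-1 minus wild type at each time. At 0 h and at 12 h, 0 of 35 members passed with limma, against a background of 0.11% and 1.35% of all probe sets. The unadjusted p was under 0.05 for 4 members at 0 h, namely EXPB1, EXPB3 and XTH32 lower and CSLA01 higher, and for 6 at 12 h, against 6.85% and 11.7% of all probe sets. Those 6 were CSLA01, CSLC04, XTH18 and XTH19 higher and EXLA1 and EXLA3 lower. Without both 24 h replicate 2 arrays 4 and 7 members passed, against 5.35% and 13.7% of all probe sets, and the other fits called 0 to 4 members at 0 h and 0 to 8 at 12 h. At 0 h the 2 mutant arrays both lay below the 2 wild-type arrays for 18 members and above them for 2, against 26.6% and 22.9% of all probe sets. At 24 h, 4 of 35 members passed, against a background of 7.5%, with XTH18 higher (background 3.31%) and EXPA8, XTH16 and XTH32 lower (background 4.19%). These 4 were called in each of the 4 fits that left out 1 of the 24 h arrays and with replicate 1 alone, where 8 members and 21.4% of all probe sets passed. None of the 4 was called with array quality weights (adjusted p from 0.15 to 0.405) or with the 4 arrays of 24 h alone (from 0.389 to 0.533). The members' share of 11.4% against 7.5% amounts to few genes.

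**Figure D4:**
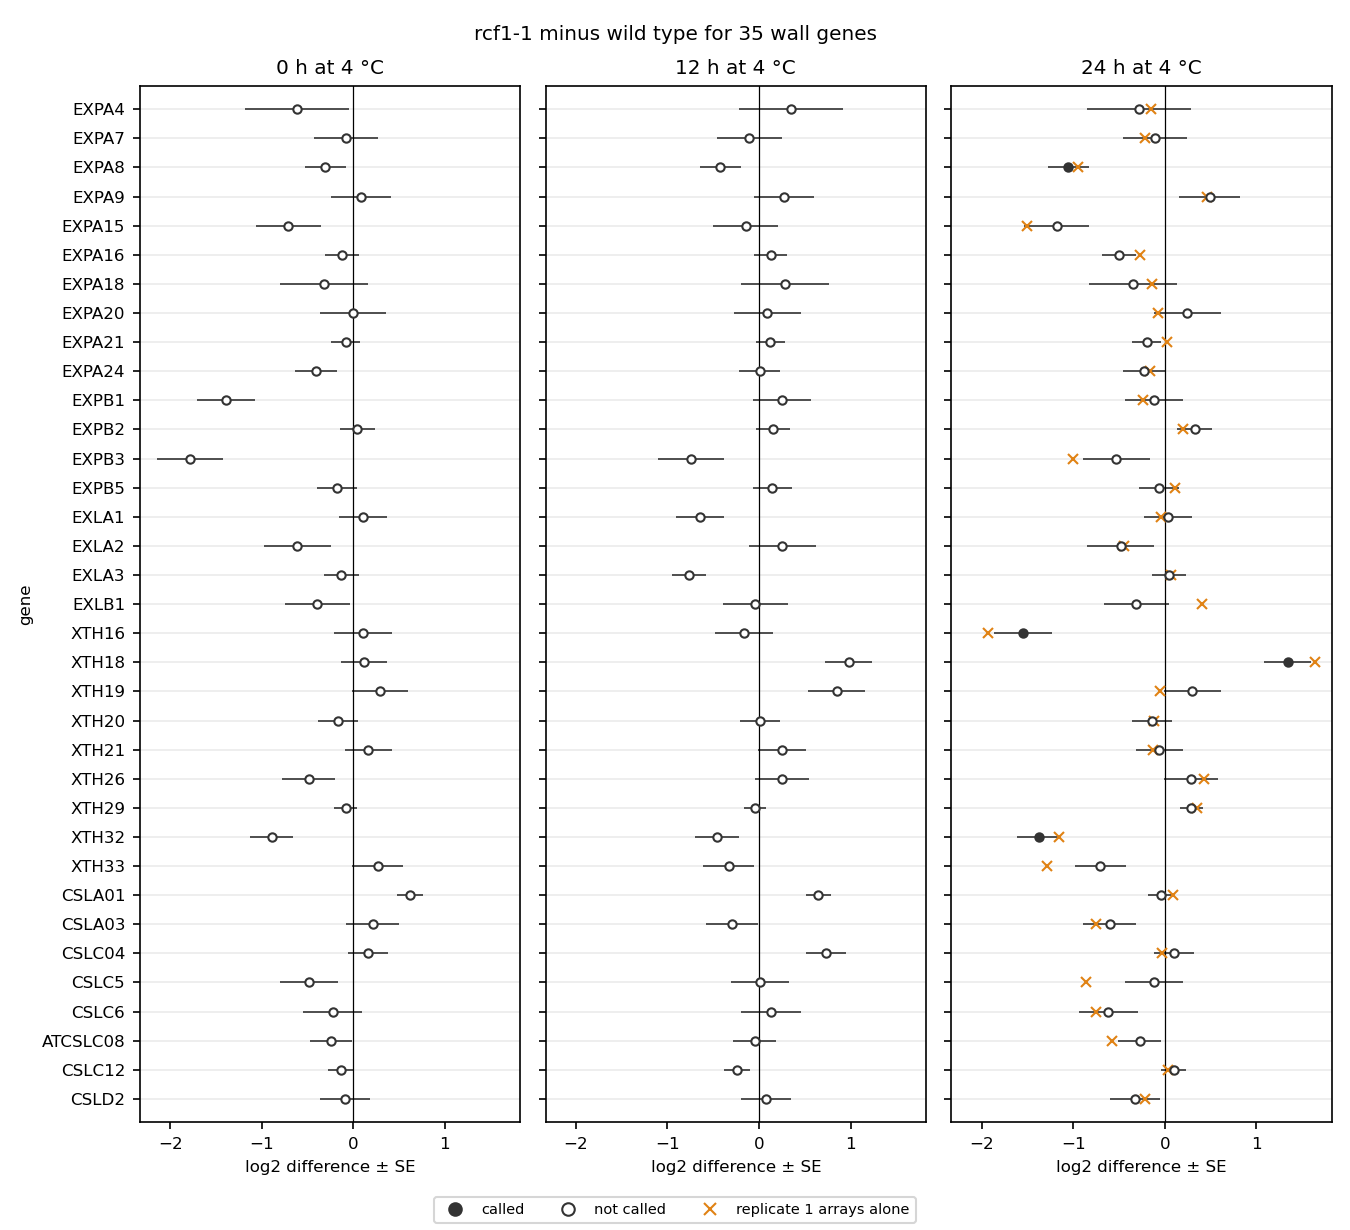
Log2 difference of rcf1-1 minus wild type with its standard error for the 35 genes at 0 h, 12 h and 24 h, filled where it passed the test, with crosses for the 24 h difference between the 2 replicate 1 arrays. EXPA8, XTH16, XTH18 and XTH32 are the filled points at 24 h, and EXPB1 and EXPB3 are the lowest values at 0 h.

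Whether the cold response itself differed between the genotypes was tested as the difference of differences. At 12 h 0 of 35 members passed with limma (background 0.0879%; 0 to 1 in the other fits, 1 without both 24 h replicate 2 arrays against 3% of all probe sets), with an unadjusted p under 0.05 for 3, EXPB1, EXLA3 and XTH18, against 5.19% of all probe sets. At 24 h 0 of 35 passed (background 1.1%; 0 to 5 in the other fits), with an unadjusted p under 0.05 for 7, CSLA01, EXPA8, EXPB1, EXPB3, XTH16, XTH18 and XTH33, against 12.7%. XTH16 at 24 h had -1.66 ± 0.45 (95% interval -2.64 to -0.67; adjusted p = 0.116). XTH18 had 1.22 ± 0.36 (0.43 to 2.01; adjusted p = 0.152), and XTH33 -0.97 ± 0.4 (-1.84 to -0.1; adjusted p = 0.326). These 3 XTH genes passed with replicate 1 alone, at -2.04, 1.52 and -1.55 (adjusted p = 0.00821, 0.00362 and 0.006), where 13.8% of all probe sets passed. Leaving out 1 array gave 1.56 for XTH18 without wild-type 24 h replicate 2, and 1.85 for EXPB3 without wild-type 24 h replicate 1. In both fits the mutant mean still holds its 24 h replicate 2 array. For EXPB1 the difference was 1.64 ± 0.45 at 12 h (0.65 to 2.63; adjusted p = 0.388, and 0.0348 without both 24 h replicate 2 arrays) and 1.28 ± 0.45 at 24 h (adjusted p = 0.243; 1.15 with replicate 1 alone, adjusted p = 0.13). For EXPB3 it was 1.04 ± 0.51 and 1.25 ± 0.51 (adjusted p = 1 and 0.328), and 0.78 at 24 h with replicate 1 alone (adjusted p = 0.171). In both beta-expansins the unchilled mutant mean was lower, and the genotype means were closer together in the cold. The chilled means of EXPB1 were close to the lowest signals, so their gap may be understated. EXPA8 gave -0.12 ± 0.32 at 12 h (95% interval -0.82 to 0.58) and -0.75 ± 0.32 at 24 h (adjusted p = 0.349; -0.65 with replicate 1 alone, adjusted p = 0.209).

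Other wall and growth genes came from 7 lists of 108 genes, of which 8 were paired with a probe set. No gene of the lists for xyloglucan synthesis, structural proteins or secondary wall regulators was paired. PGX3, a gene of a pectin-cutting polygalacturonase, read 6.3 and 6.66 unchilled, 9.79 and 9.96 at 12 h and 7.06 and 6.71 at 24 h in wild type, and 5.69 and 5.5, 10.4 and 10.24 and 6.85 and 5.89 in rcf1-1. It rose at 12 h by 3.39 ± 0.3 in wild type (adjusted p = 3.31e-05) and by 4.72 ± 0.3 in rcf1-1 (adjusted p = 3.37e-06). At 24 h the PGX3 differences were 0.41 ± 0.3 and 0.77 ± 0.3, neither called with all arrays, and 0.58 and 1.25 with replicate 1 alone, both called. Of the receptor kinase genes that act in wall sensing, FER was higher at 12 h by 1.12 ± 0.29 in wild type and 1.33 ± 0.29 in rcf1-1, and THE1 had -1.45 ± 0.27 and -1.16 ± 0.27, all called. FER was also called in rcf1-1 at 24 h, at 1.16 ± 0.29 (1.21 with replicate 1 alone), while in wild type it had 0.42 ± 0.29, which passed with replicate 1 alone (0.84). THE1 at 24 h had 0.57 ± 0.27 in wild type, which passed with replicate 1 alone (0.77), and 0.05 ± 0.27 in rcf1-1 (-0.29 with replicate 1 alone), not called. COB, whose protein acts in cellulose deposition, rose in rcf1-1 against its own 0 h by 1.12 ± 0.25 at 12 h and 0.92 ± 0.25 at 24 h. Both were called (0.71 at 24 h with replicate 1 alone), while the wild-type COB differences from 0 h, 0.75 ± 0.25 and 0.45 ± 0.25, did not pass. Without both 24 h replicate 2 arrays wild-type COB passed at 12 h (adjusted p = 0.00739) and not at 24 h (0.47, adjusted p = 0.167), and its response difference at 12 h was 0.37 ± 0.36 (adjusted p = 1). HCT, a lignin pathway gene, was called in wild type at 24 h, at -1.13 ± 0.31 (-0.63 with replicate 1 alone), and in rcf1-1 it had -0.9 ± 0.31 (adjusted p = 0.0623; -0.93 with replicate 1 alone, called). ADPG1, another polygalacturonase gene, was called in wild type at 12 h, at 0.32 ± 0.09, with signals of 2.15 to 2.59 on the arrays, and STL1 and IRX10 were called in no comparison with all arrays. None of the 8 was called between the genotypes or in the difference of their responses with all arrays. Without both 24 h replicate 2 arrays 4 such values passed. They were PGX3 at 0 h (-0.88, adjusted p = 0.00479), THE1 at 24 h (-0.98, adjusted p = 0.00795), and the response differences of PGX3 at 12 h (1.33, adjusted p = 0.00385) and THE1 at 24 h (-1.06, adjusted p = 0.0245).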

How the data were processed

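The deposited table holds log2 values of 22810 probe sets on 12 arrays, made by the authors with RMA, per the submitters' processing notes; software, version and the arrays normalized together are not stated in these sources. The 64 control probe sets were left out, leaving 22746. Genes came from the array annotation, and all 35 members matched the gene table of assembly TAIR10.1 by gene ID. Of other probe sets, 2 are given to 2 expansin genes each and were left out.

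The model was fitted with limma 3.58.1 (R 4.3.3). A mean per group was fitted on all 12 arrays (6 residual and 4.7 prior degrees of freedom, eBayes with a trend on mean expression). Nothing was filtered, so every member was tested. Two-sided p-values were adjusted (Benjamini-Hochberg) over all probe sets within a comparison, and called means an adjusted p under 0.05. Errors are limma's standard errors, which pool all groups, and intervals are 95%. The labels call the replicates biological and do not say whether they were grown apart. Depth does not apply to arrays, and their number limits precision.

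The named genes were EXPA8, XTH16, any CESA member, the 5 called members with the largest difference per comparison and direction, further members called in at least 1 comparison, and uncalled members by level. Uncalled members given with a difference (EXPA15, EXLB1, XTH19, ATCSLC08, CSLC5, CSLC6, CSLD2) were chosen after their values were seen. Other wall genes came from 7 lists. Members and lists were chosen with earlier results of these data known. Alternatives tried were array weights, the replicate block, no trend, dropping probe sets under the 30th percentile of mean signal, quantile normalization applied once more, the compared arrays alone, 2 treatments of the 24 h replicate 2 arrays, and leaving out each array. Sequences were not used here.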

Additional observations from a re-analysis of the deposited data

How the results depend on the processing

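The counts of members called did not move by over 1.5 times without the trend, with the 30th percentile filter or with the replicate block. The block gave 0, 0 and 4 calls between genotypes at 0 h, 12 h and 24 h, 11 and 10 in chilled wild type and 8 and 11 in chilled rcf1-1, and 0 for both differences of the responses. It ended none of the 43 calls. Numbers 1 and 2 pair no samples by the labels, and replicate differences correlated over 0.1 in 1 of 15 pairs of groups, that of both 24 h groups. A second quantile normalization gave 1 call between genotypes at 12 h. Array quality weights gave 4, 7 and 0 calls between genotypes at 0 h, 12 h and 24 h, 15 in rcf1-1 at 12 h and 1 for the 12 h response difference. The compared arrays alone gave 1, 8 and 0 between genotypes, 6 in wild type at 24 h, 16 and 5 in rcf1-1 at 12 h and 24 h, and 1 for the 12 h response difference. Leaving out both 24 h replicate 2 arrays gave 4, 7 and 8 between genotypes, 14 and 18 in rcf1-1, and 1 and 3 for the response differences. A term shared by those arrays gave 4 and 6 between genotypes at 0 h and 12 h, 11 in rcf1-1 at 12 h, and 1 and 5 for the response differences. Leaving out 1 compared array gave 0 to 0 at 0 h and 12 h and 4 to 7 at 24 h between genotypes, 6 to 9 and 7 to 10 in wild type, 5 to 6 and 7 to 12 in rcf1-1, and 0 to 0 and 0 to 1 for the response differences. No member difference with an unadjusted p under 0.05 changed sign in the other fits, while smaller ones such as CSLA03 in wild type at 24 h did. In fits without 1 array 40 of 172 calls were lost. Where both 24 h replicate 2 arrays stay, their spread enters every gene's error. The cause of the other shifts was not tested. The mean over several probe sets was not run, as each member has 1. A fit without a single 24 h array keeps part of the shift that both replicate 2 arrays share.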
